A study of Mus musculus with 6 samples.

Results

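Messages for tubulins, kinesins, dynein and dynactin subunits, structural microtubule-associated proteins and stathmins were followed in ribosome-bound RNA of mouse cortex. The genes were chosen by symbol from the platform annotation: tubulins whose symbol starts with Tuba, Tubb or Tubg, the Kif and Kifc kinesins, Klc1 to Klc4, genes starting with Dync, Dynl or Dctn, Map1a, Map1b, Map1s, Map2, Map4, Mapt and the stathmins. Of 94 such genes on the array, 67 reached an intensity of 50 as the mean of at least 1 group, out of 10830 genes that did so in all. The other 27 stayed below it and were not tested. For each gene the probe set of highest mean over the 6 arrays was used, and intensities of different probe sets share no scale, so levels are not compared between genes.

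The RNA came from the DU9 line of Glt25d2 bacTRAP mice, backcrossed for 3 to 5 generations from FVB onto C57BL/6. The transgene puts a tagged ribosomal protein under control of Glt25d2 (current symbol Colgalt2), and translating ribosome affinity purification (TRAP) recovers the RNA on the tagged ribosomes. Fluoxetine mice drank 0.167 mg/ml fluoxetine in 1% saccharine, and vehicle mice drank 1% saccharine, for 15 to 18 days; both carried the transgene, and the labels used here give no age. Each treatment had 3 Affymetrix arrays (FLX 1 to 3 and VEH 1 to 3), called biological replicates in the labels, with no number of mice per purification, so p-values measure the spread between these samples. The title, source and treatment fields give the grouping used here, whereas each sample's short description names the opposite treatment. Arrays are therefore called fluoxetine-titled and vehicle-titled, and should the descriptions hold, all signs between the treatments would turn. The arrays were also compared by replicate number: the 2 arrays numbered 1 against the 4 arrays numbered 2 or 3, each number holding 1 array of each title group. No label used here says what a number stands for.

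Microtubules are polymers of alpha- and beta-tubulin that start from complexes of gamma-tubulin. Kinesins mostly carry cargo along them towards the axon tip, and cytoplasmic dynein with its activator dynactin carries cargo back to the cell body. Microtubule-associated proteins such as tau and MAP2 bind and stabilise the polymer, and stathmins bind free tubulin and favour disassembly. Pyramidal cells of layer 5 send some of the longest axons of the cortex, along which these motors work.

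Layer 5 markers were present and the arrays were alike in overall level. Medians of the arrays were between 23.03 and 23.45. Colgalt2 itself lay between 709.2 and 986.1, and 9 of 10 measured markers of layer 5 subcortical projection neurons reached the filter. Markers of astrocytes, oligodendrocytes, microglia, vessels and interneurons were measured too, and 18 of 18, 14 of 15, 9 of 13, 10 of 13 and 14 of 14 of them reached it. Between the title groups these lists leaned the other way from the layer 5 markers, with 0 genes of any list past the threshold. The layer 5 list had 0 of 9 positive differences, fluoxetine-titled minus vehicle-titled (median -0.10), against 16 of 18 for astrocytes (0.21), 11 of 14 for oligodendrocytes (0.14), 8 of 9 for microglia (0.21), 9 of 10 for vessels (0.24) and 9 of 14 for interneurons (0.10). Summed layer 5 markers lay between 16227 and 18639 on fluoxetine-titled and between 18028 and 19722 on vehicle-titled arrays, and summed astrocyte markers between 47784 and 55999 on fluoxetine-titled and between 35481 and 59071 on vehicle-titled arrays. Their part in the differences between the title groups was not tested. VEH 3 stood apart as the lowest array for the medians of these 5 lists, by -0.58, -0.53, -1.01, -0.29 and -0.41. These are on the log2 scale, relative to each gene's mean over the arrays. The layer 5 median on VEH 3 was 0.12 on that scale. The first principal component of the log2 intensities took 60.0% of the variance and set both arrays numbered 1 apart from the other 4. In such bulk RNA from purified ribosomes, fewer cells of a type and less RNA per cell cannot be told apart. RNA carried over from other cells in the purification was not tested.

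**Figure D1:**
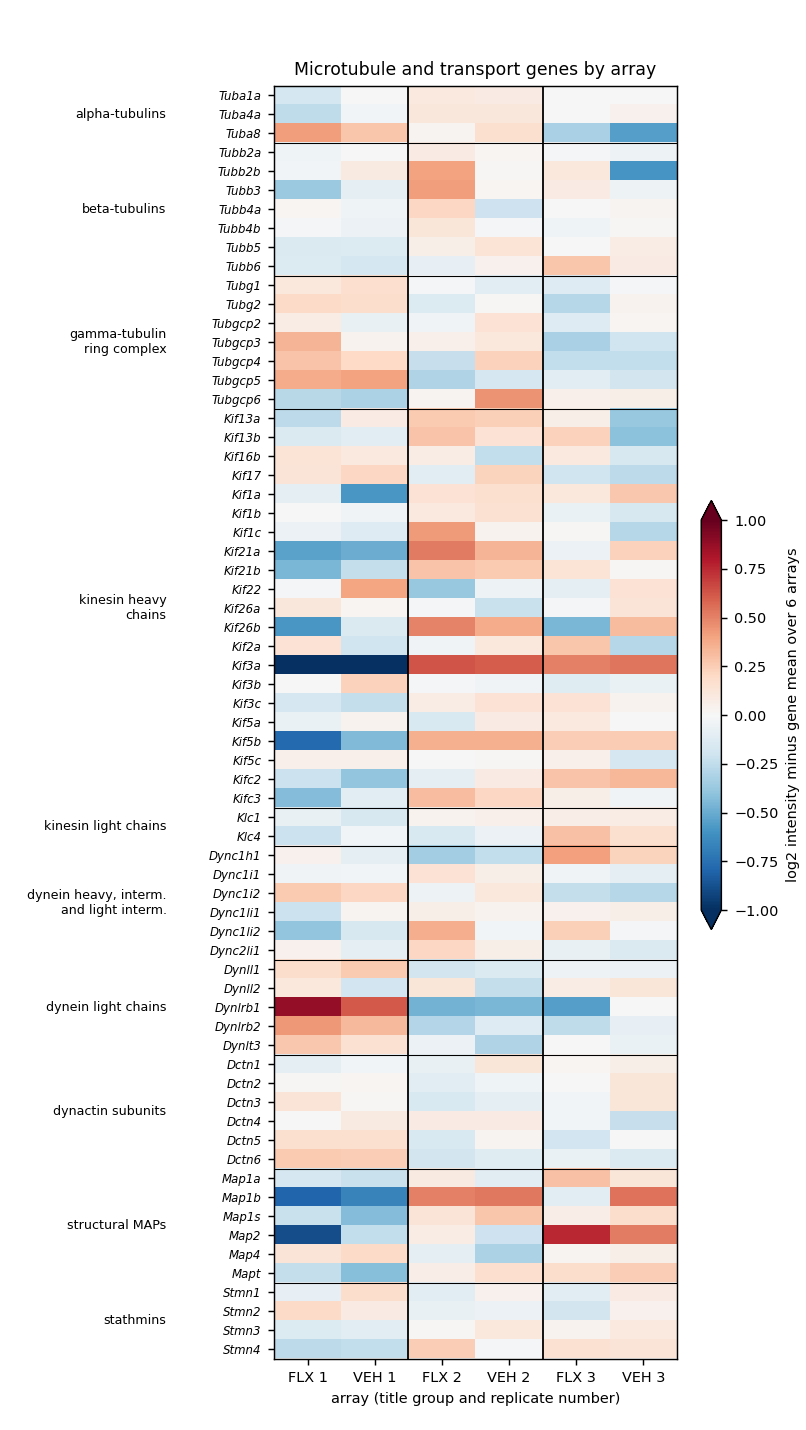
Log2 intensity of each of the 67 genes on each array, relative to that gene's mean over the 6 arrays, with arrays FLX 1, VEH 1, FLX 2, VEH 2, FLX 3 and VEH 3 from left to right and genes grouped by role. FLX 1 and VEH 1 share a column pattern, with Kif3a, Kif5b and Map1b low and Dynlrb1 high, and same-numbered arrays resemble each other.

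Every role group had members above the filter. They were 3 of 4 alpha-tubulins, 7 of 9 beta-tubulins, all 7 gamma-tubulin and ring complex genes, 21 of 41 kinesin heavy chains and related genes, 2 of 3 kinesin light chains, 6 of 7 dynein heavy, intermediate and light intermediate chains, 5 of 6 dynein light chains, all 6 dynactin subunits, all 6 microtubule-associated proteins and 4 of 5 stathmins. The kinesins below the filter were largely those of cell division: of 14 mitotic kinesins on the array, 1 reached it, Kif22. All 15 measured kinesins of axonal and dendritic transport, the light chain gene Klc1 among them, reached it. Probe sets share no scale, so these counts do not rank the classes by level. The share of all genes on the array that reached the filter is not given here. At the edge of the filter, Kif26b was inside with means of 42.8 in fluoxetine-titled and 52.6 in vehicle-titled arrays, as were Kif26a with 64.7 and 62.9 and Kif13b with 72.4 and 61.3. Just outside were Kif27 with means of 43.4 in fluoxetine-titled and 47.6 in vehicle-titled arrays, Kif23 with 29.0 and 37.3, and Dync2h1 with 27.3 and 34.7. Kif26b was the single one of the 67 whose mean reached 50 in only 1 title group.

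The comparison of title groups asks how fluoxetine drinking bears on these messages. None of the 67 genes passed an adjusted p of 0.05 in limma, against 0% of all genes tested, and the smallest adjusted p was 1.00. None had an unadjusted p under 0.05 either, against 0.591% of all genes. A replicate block left this at 0 of the 67 in limma, with a smallest adjusted p of 0.993. The block brought 1 gene, Kif22, under an unadjusted 0.05 (limma with the block, unadjusted p = 0.0166), against 3.41% of all genes. The median log2 difference of the 67 was -0.019, beside -0.0068 over all genes. Single genes ran between -0.36 and 0.32, with 31 positive and 36 negative. The 95% confidence interval lay within 2-fold in either direction for 62 genes and within 1.5-fold for 47. With the block it did so for 67 and 62. The standard errors of single genes between the title groups are those of the fit without the block. Their median over the 67 was 0.17 without the block and 0.11 with it.

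Tubulins were close between the title groups. Tuba1a, the main alpha-tubulin gene of young neurons, had intensities of 35057, 42198 and 39568 on FLX 1 to 3 and 39356, 41845 and 39624 on VEH 1 to 3. The groups overlapped, and the log2 difference was -0.05 ± 0.13 (SE). Tubb3, the beta-tubulin used as a marker of neurons, averaged 6484 ± 1729 in fluoxetine-titled and 5981 ± 229 in vehicle-titled arrays (SD, n = 3 each), a difference of 0.08 ± 0.21. Differences were positive for 6 of the 7 beta-tubulins (median 0.04). Tubb2b, a beta-tubulin gene needed for neuronal migration, had the most positive difference of all 67 genes, 0.32 ± 0.22. Its intensities were 5060, 6835 and 5561 on FLX 1 to 3 and 5507, 5217 and 3430 on VEH 1 to 3, so that the groups overlapped, the order was turned in the pair numbered 1, and the lowest value was on VEH 3. Without VEH 3 the Tubb2b difference was 0.11. Of 7 gamma-tubulin and ring complex genes, which nucleate microtubules, 6 were on the negative side (median -0.06). The most negative were Tubg2 at -0.15 ± 0.16 and Tubgcp6 at -0.13 ± 0.21.

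Kinesin heavy chains were split, with 10 positive and 11 negative differences. Kif5a, a neuronal heavy chain of conventional kinesin, averaged 5595 ± 508 in fluoxetine-titled and 5898 ± 146 in vehicle-titled arrays, a difference of -0.08 ± 0.13. Its relative Kif5c averaged 18492 ± 366 in fluoxetine-titled and 17660 ± 1377 in vehicle-titled arrays, a difference of 0.07 ± 0.12. Kif1a, which carries synaptic vesicle precursors, had 382.7 ± 32.5 in fluoxetine-titled and 367.1 ± 106 in vehicle-titled arrays. The 4 most positive kinesins were Kif1c at 0.25 ± 0.17, Kif2a, which takes tubulin off microtubule ends, at 0.25 ± 0.16, Kif13b at 0.24 ± 0.19 and Kif16b, a carrier of early endosomes, at 0.21 ± 0.14. Kif1c and Kif16b were higher in the fluoxetine-titled array of all 3 pairs. Kif22, a chromosome-binding kinesin, had intensities of 734.3, 570.6 and 699.7 on FLX 1 to 3 and 979.1, 718.3 and 821.5 on VEH 1 to 3. Every pair had its lower value on the fluoxetine-titled array, but the groups overlapped, with a difference of -0.33 ± 0.17. Kif26b, close to the filter, had the most negative difference, -0.36 ± 0.30. Klc1, the kinesin light chain that links the heavy chain to cargo, differed by 0.02 ± 0.13.

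Dynein and dynactin genes gave small differences of both signs. Dync1h1, the heavy chain that holds the motor of cytoplasmic dynein, had 846.4, 647.3 and 1092 on FLX 1 to 3 and 771.1, 694.2 and 960.7 on VEH 1 to 3, a difference of 0.07 ± 0.22. The arrays numbered 3 were highest and those numbered 2 lowest whichever title they carried. Dctn1, the dynactin subunit that binds microtubules, averaged 5953 ± 252 in fluoxetine-titled and 6388 ± 337 in vehicle-titled arrays (SD, n = 3 each), a difference of -0.10 ± 0.12. Of the 6 dynactin genes, Dctn1, Dctn2 and Dctn5 were lower in the fluoxetine-titled array of all 3 pairs. Dynll1, the light chain shared by dynein and other complexes, differed by -0.04 ± 0.17. Its close relative Dynll2 had the most positive difference among the light chains, 0.20 ± 0.14, with 17547, 17707 and 17126 on FLX 1 to 3 and 14246, 13818 and 17712 on VEH 1 to 3. Here VEH 3 lay above all 3 fluoxetine-titled arrays and the other vehicle-titled arrays below them.

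Among proteins that bind the polymer or free tubulin, Stmn1 was the one gene of the 67 whose title groups did not overlap. Stmn1, the stathmin of growing and plastic cells, had intensities of 24444, 24063 and 24106 on FLX 1 to 3 and 29230, 26753 and 27481 on VEH 1 to 3. All fluoxetine-titled values lay below all vehicle-titled ones, with a difference of -0.20 ± 0.12 that did not pass (limma, adjusted p = 1.00). Such a lower non-overlap was found for 1.98% of all genes and a higher one for 1.63%, and 0 of the 67 had the higher one. A second Stmn1 probe set had 7125, 4341 and 3603 on FLX 1 to 3 and 6678, 3796 and 4758 on VEH 1 to 3, so that its groups overlapped. Stmn2, a stathmin of neurons linked to axon growth, differed by -0.04 ± 0.14. Map1b, which is high in growing axons, differed by -0.27 ± 0.42, Map2, the protein of dendrites, by -0.04 ± 0.42, and Mapt, which encodes tau, by 0.00 ± 0.22. The large standard errors of Map1b and Map2 go with a spread between replicate numbers that is described below.

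By replicate number, the set shifted little in any pair of same-numbered arrays. The median log2 difference of the 67 was -0.0055, -0.015 and -0.0060 in the pairs numbered 1, 2 and 3, beside 0.00069, -0.025 and -0.00081 over all genes. Positive differences numbered 32, 30 and 31 of 67. Of the 67, 5 were higher in the fluoxetine-titled array of all 3 pairs (Kif1c, Kif16b, Map1a, Dynlt3 and Dync2li1), against 10.9% of all genes. Another 8 were lower in all 3 (Kif22, Map1b, Stmn1, Stmn3, Tubb5, Dctn1, Dctn2 and Dctn5), against 13.1% of all genes. As shares of the 67 these are 7.46% and 11.9%, both below the share over all genes. Map1a, Dynlt3, Dync2li1, Dctn2 and Dctn5 are named here after their values were seen.

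**Figure D2:**
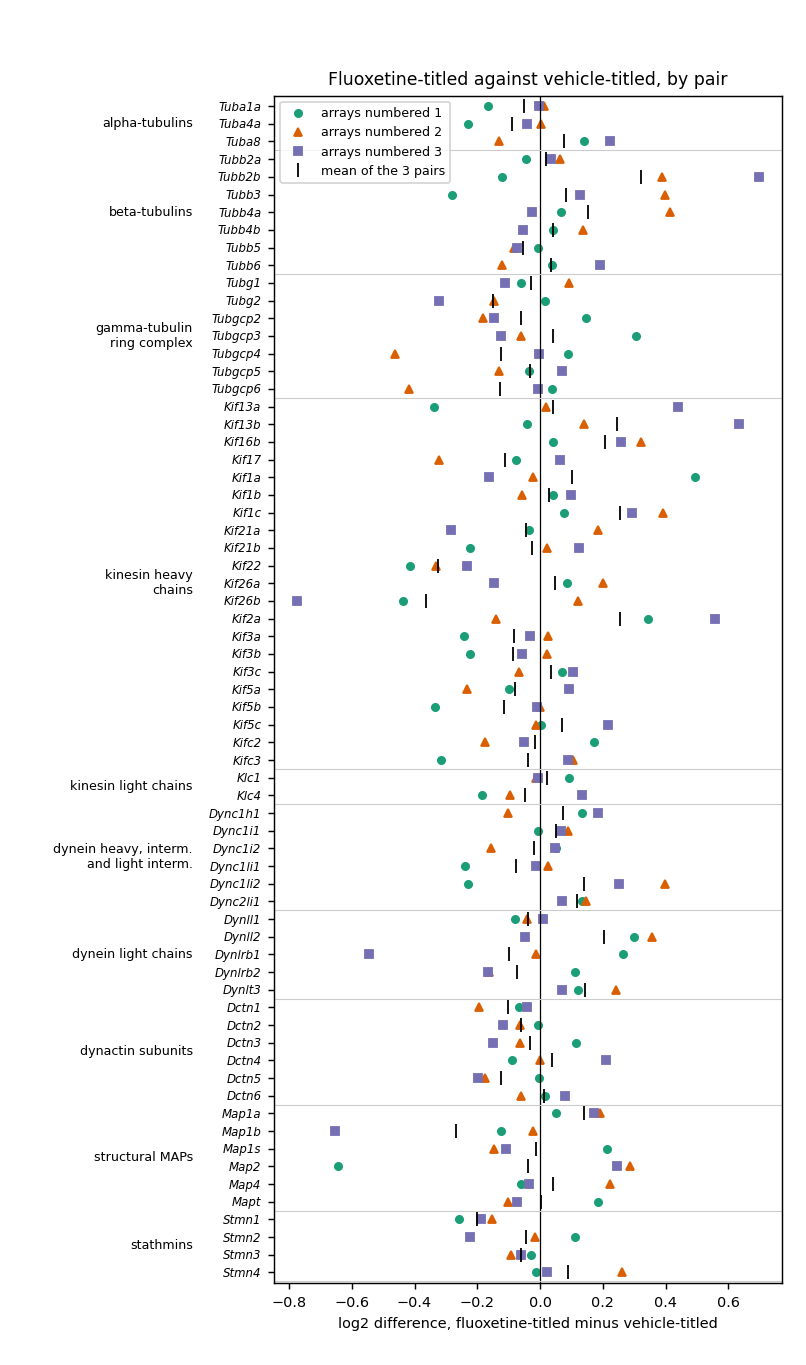
Log2 difference, fluoxetine-titled minus vehicle-titled, of each of the 67 genes in each pair of same-numbered arrays, with the mean of the 3 pairs as a black tick. The means run between -0.36 (Kif26b) and 0.32 (Tubb2b), and for most genes the 3 symbols lie on both sides of 0.

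The other comparison sets the arrays numbered 1 against those numbered 2 and 3, with title group as a term in the fit. It counts same-numbered arrays as independent, although they deviated from their group means together. With 1 mean per number, an alternative chosen after seeing the data that sets 1 value against 2, limma passed 1 of the 67 higher and 5 lower, together 8.96% beside 9.56% of all probe sets. The calls of Dynlrb2, Tubgcp5, Kif21b, Mapt and Map1s were then lost (adjusted p between 0.0719 and 0.129), and Map2 passed (adjusted p = 0.0445). In the fit over arrays, 10 of the 67 genes passed an adjusted p of 0.05, or 14.9%, beside 12.8% of all genes. The share was thus near that of the whole array. Of all probe sets 15.3% passed in that fit, a unit that counts some genes more than once, as in the 9.56% above. The most raised of the 10 genes was the dynein light chain gene Dynlrb1, 2.17-fold. The most lowered was the kinesin gene Kif3a, 3.26-fold, read from 1 of its 4 kept probe sets, and the others did not pass. Higher on the arrays numbered 1 were 3 genes, Dynlrb1, Dynlrb2 and Tubgcp5, or 4.48% beside 5.92% of all genes. Lower were 7 genes, Kif3a, Map1b, Kif5b, Kif21a, Kif21b, Mapt and Map1s, or 10.4% beside 6.86% of all genes. An unadjusted p under 0.05 was found for 23 of the 67, or 34.3%, beside 30.2% of all genes. The median log2 difference of the 67 was -0.044, beside 0.037 over all genes, with 26 positive and 41 negative. Of the 67, 55 had the same sign within either title group, and the share over all genes is not given here. The values of all arrays numbered 1 lay above all others for 14 genes (20.9%, beside 24.4% of all genes) and below them for 24 (35.8%, beside 19.9%).

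**Figure D3:**
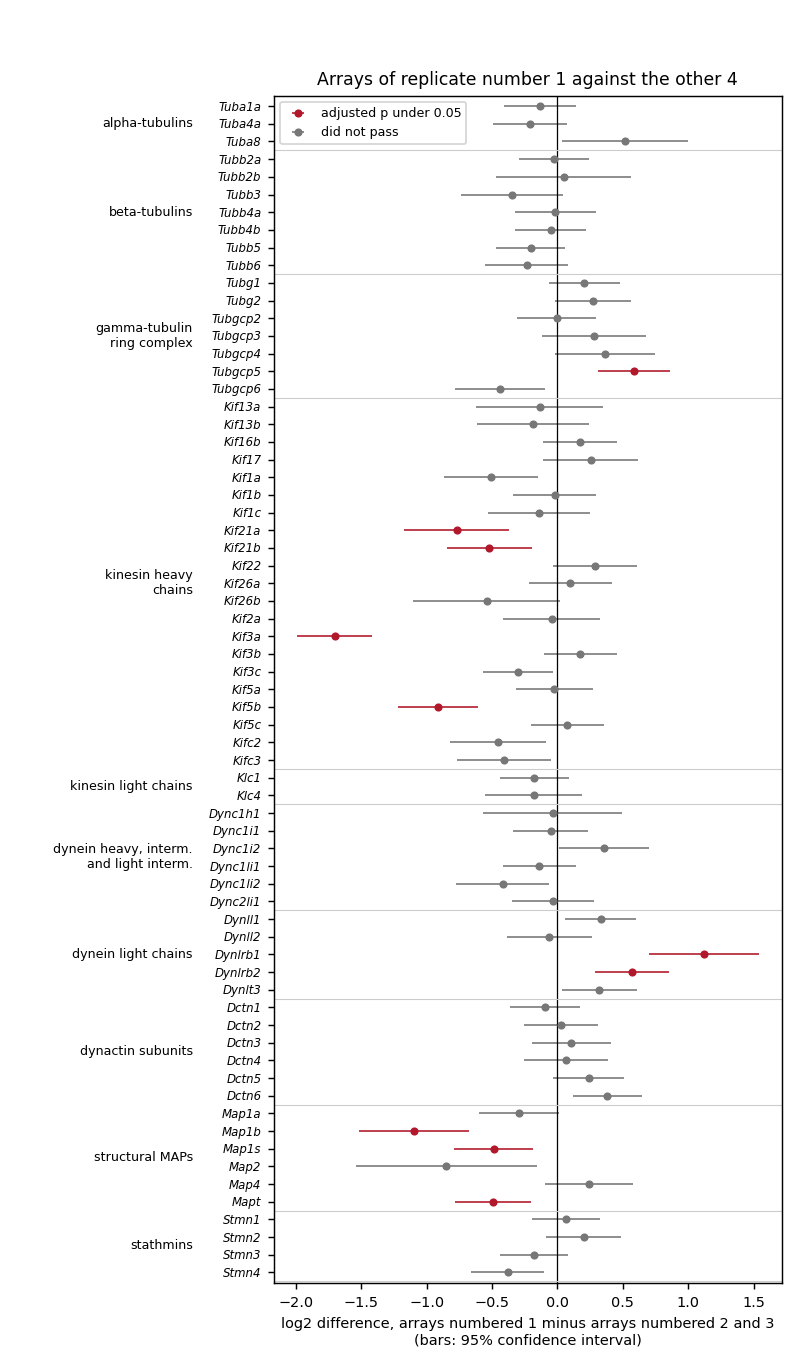
Log2 difference of the 67 genes, the 2 arrays numbered 1 minus the 4 arrays numbered 2 and 3, with 95% confidence intervals, coloured by whether the adjusted p was under 0.05. Of the 10 that passed, Dynlrb1 is the most positive at 1.12 and Kif3a the most negative at -1.70.

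The gene with the most positive difference and the 2 with the most negative are shown with the 250 bases before their RefSeq start (GRCm38.p6). Kif3a lies on chromosome 11 at chr11:53567119-53567368 (plus strand), Dynlrb1 on chromosome 2 at chr2:155236283-155236532 (plus strand, the first of 2 starts in the table) and Map1b on chromosome 13 at chr13:99516603-99516852 (minus strand). Capitals mark the GC box GGGCGG bound by Sp1, the NRF1 motif TGCGCA and the CRE core TGACG, each searched on both strands.
Kif3a: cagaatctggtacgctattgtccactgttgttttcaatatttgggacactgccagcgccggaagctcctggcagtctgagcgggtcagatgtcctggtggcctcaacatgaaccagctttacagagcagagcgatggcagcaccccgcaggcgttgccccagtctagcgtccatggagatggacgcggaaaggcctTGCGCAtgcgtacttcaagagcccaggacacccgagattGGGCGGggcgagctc
Dynlrb1: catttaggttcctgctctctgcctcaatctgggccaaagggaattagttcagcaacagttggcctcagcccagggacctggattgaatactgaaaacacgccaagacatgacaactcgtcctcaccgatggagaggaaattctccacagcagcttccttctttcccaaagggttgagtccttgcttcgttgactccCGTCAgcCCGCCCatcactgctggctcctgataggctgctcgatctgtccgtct
Map1b: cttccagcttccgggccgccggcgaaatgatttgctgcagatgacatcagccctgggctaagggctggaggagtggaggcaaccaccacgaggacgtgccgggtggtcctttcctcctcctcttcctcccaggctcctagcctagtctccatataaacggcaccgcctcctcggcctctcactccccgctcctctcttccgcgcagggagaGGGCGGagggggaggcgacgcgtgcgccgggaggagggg
Each window holds 1 GC box, the Kif3a window also holds an NRF1 motif, and the Dynlrb1 window also holds a CRE core. Of 32851 such promoters of all gene kinds, 32.7% hold the GC box, 6.43% the NRF1 motif and 17.8% the CRE core. Of 55 promoters listed for 48 of the 67 genes, 60.0%, 12.7% and 36.4% hold them. The share of G and C was 58.8%, 53.2% and 66.4% in the Kif3a, Dynlrb1 and Map1b windows, beside a median of 52.4% over all promoters. Promoters were not matched for this share or for gene kind, and no enrichment is read from the percentages. These are matches of letters and say nothing of binding.

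Of 21 kinesin heavy chains and related genes, 4 passed as lower on the arrays numbered 1, beside 6.86% of all genes, and 0 as higher. Roles were set with earlier results of these arrays known, so nothing particular to kinesins is read from that count. Kif3a, a motor subunit of heterotrimeric kinesin-2, had intensities of 620.0 on FLX 1 and 734.2 on VEH 1, against 2293, 2253, 2101 and 2149 on FLX 2, VEH 2, FLX 3 and VEH 3. The 4 arrays numbered 2 or 3 lay within a narrow range and both arrays numbered 1 far below it. The difference was -1.70 ± 0.12 on the log2 scale or 3.26-fold (limma, adjusted p = 0.000827). Other Kif3a probe sets, described below, gave smaller differences and did not pass. Kif5b, the widely expressed heavy chain of conventional kinesin, had 1533 on FLX 1 and 1933 on VEH 1, against 3366, 3364, 3108 and 3128 on FLX 2, VEH 2, FLX 3 and VEH 3. Again the groups did not overlap, with a difference of -0.91 ± 0.13 (limma, adjusted p = 0.00568). Kif21a had 1096 on FLX 1 and 1124 on VEH 1, against 2275, 2003, 1523 and 1855 on FLX 2, VEH 2, FLX 3 and VEH 3, a difference of -0.77 ± 0.17 (limma, adjusted p = 0.0252). Kif21a and its relative Kif21b belong to the kinesin-4 family, whose members act on microtubule growth. Kif21b averaged 261.0 ± 28.5 on the arrays numbered 1 (SD, n = 2) and 374.4 ± 31.9 on those numbered 2 and 3 (SD, n = 4), a difference of -0.52 ± 0.14 (limma, adjusted p = 0.0442). Other kinesins did not pass. Kif1a differed by -0.51 ± 0.16, Kif26b by -0.54 ± 0.24, Kif5a by -0.02 ± 0.13 and the used probe set of Kif5c by 0.07 ± 0.12.

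Of 5 dynein light chain genes, 2 passed as higher on the arrays numbered 1, beside 5.92% of all genes. Of 7 gamma-tubulin and ring complex genes, 1 did so. Positive differences were found for 4 of the 5 and 5 of the 7, while Dynll2 lay at -0.06 and Tubgcp6 at -0.44. Dynlt3 had 0.32 on its used probe set and -0.88 on another that passed as lower. Dynlrb1, a roadblock light chain of dynein that binds the intermediate chain, had 9447 on FLX 1 and 7868 on VEH 1, against 3704, 3733, 3503 and 5112 on FLX 2, VEH 2, FLX 3 and VEH 3. Both arrays numbered 1 lay above the rest, and VEH 3 stood above the other arrays numbered 2 or 3. The difference was 1.12 ± 0.18 (limma, adjusted p = 0.00841). Its relative Dynlrb2 averaged 94.0 ± 5.08 on the arrays numbered 1 and 63.5 ± 4.32 on the rest, a difference of 0.57 ± 0.12 (limma, adjusted p = 0.0228), at intensities not far above the filter. Tubgcp5, a subunit of the gamma-tubulin ring complex, had 244.2 on FLX 1 and 250.1 on VEH 1, against 153.0, 167.7, 174.1 and 165.8 on FLX 2, VEH 2, FLX 3 and VEH 3. Its 2 arrays numbered 1 were close to each other and above all others, by 0.58 ± 0.12 (limma, adjusted p = 0.0188). Dynll1 (0.33 ± 0.12), the dynactin subunit Dctn6 (0.38 ± 0.11), Tubgcp4 (0.37 ± 0.16) and Tuba8 (0.52 ± 0.21) had positive differences that did not pass. The dynein motor gene Dync1h1 differed by -0.04 ± 0.23.

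Of the 6 structural microtubule-associated proteins, 5 had a lower mean on the arrays numbered 1, and 3 of the 6 passed as lower, beside 6.86% of all genes, too few genes to set the role apart. Map1b had 914.3 on FLX 1 and 996.8 on VEH 1, against 2245, 2281, 1468 and 2308 on FLX 2, VEH 2, FLX 3 and VEH 3. FLX 3 lay between the arrays numbered 1 and the other arrays, and the difference was -1.10 ± 0.18 (limma, adjusted p = 0.00921). Mapt had 6833 on FLX 1 and 6019 on VEH 1, against 8448, 9075, 9103 and 9586 on FLX 2, VEH 2, FLX 3 and VEH 3, with no overlap and a difference of -0.50 ± 0.13 (limma, adjusted p = 0.0374). Map1s, a short relative of Map1a and Map1b, differed by -0.49 ± 0.13 (limma, adjusted p = 0.0433). Map2 had 1318 on FLX 1 and 2061 on VEH 1, against 2574, 2111, 4127 and 3483 on FLX 2, VEH 2, FLX 3 and VEH 3. It was lowest on both arrays numbered 1, but its spread was wide, and -0.85 ± 0.30 did not pass (limma, adjusted p = 0.0935). Map4, found in many cell types, differed by 0.24 ± 0.14.

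Tubulins of high intensity and stathmins did not pass on their used probe sets. Other probe sets of Tubb2a (0.74) and Stmn1 (0.75) passed as higher on the arrays numbered 1. Tuba1a averaged 37207 ± 3040 on the arrays numbered 1 (SD, n = 2) and 40809 ± 1408 on those numbered 2 and 3 (SD, n = 4), a difference of -0.14 ± 0.12. Tubb2a differed by -0.03 ± 0.12, Tubb3 by -0.35 ± 0.17, Stmn1 by 0.06 ± 0.11 and Stmn2 by 0.20 ± 0.12. Alpha-tubulin genes resemble each other closely in coding sequence, as do beta-tubulin genes, and a probe set can read more than 1 of them.

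**Figure D4:**
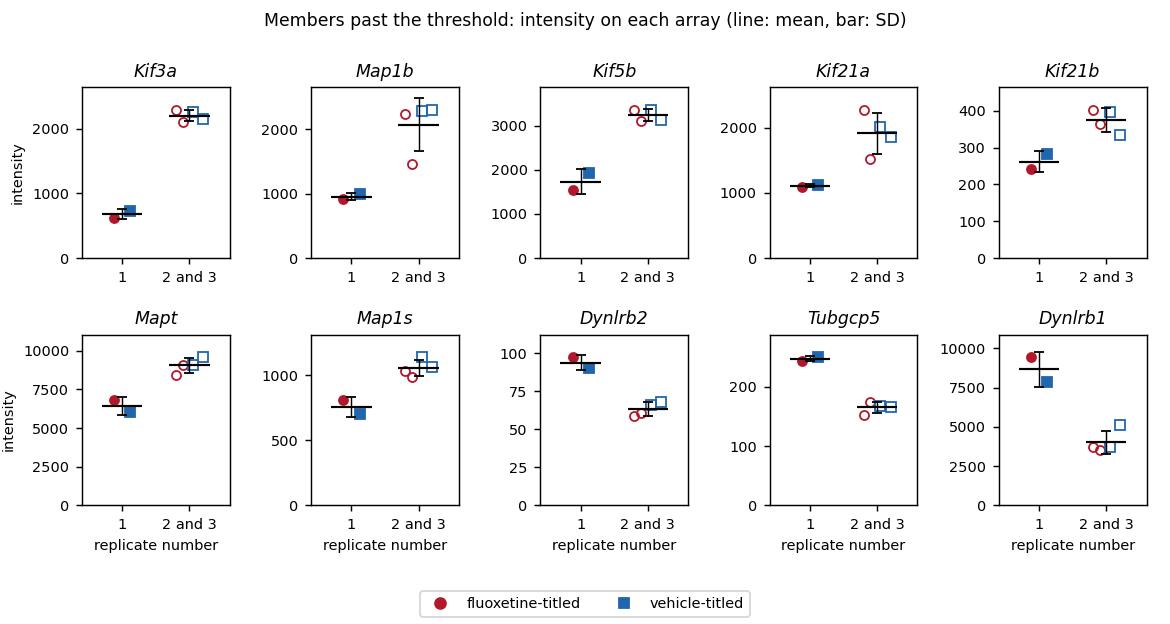
Intensity on each array of the 10 genes with an adjusted p under 0.05, arrays numbered 1 left of arrays numbered 2 and 3, with fluoxetine-titled arrays as circles and vehicle-titled arrays as squares, the line at the mean and the bar 1 SD. In each of the 10 panels both arrays numbered 1 lie on 1 side of the other 4.

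No dependence of the title-group difference on the number was detected. An interaction term for title group and number 1 passed for 0 of the 67 genes in limma, and 0 had an unadjusted p under 0.05, against 2.55% of all genes. For Kif3a the interaction was -0.24 ± 0.25 and for Dynlrb1 0.54 ± 0.33, and with 6 arrays its median standard error over the 67 genes was 0.27.

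The number of genes that passed changed with the array left out, for the 67 and for the whole array alike. Shares of the 67 count 1 probe set per gene, whereas those of all probe sets count every one, so the units differ. With all 6 arrays, 12.8% of all genes and 15.3% of all probe sets passed. The count of the 67 was 0 higher and 1 lower without FLX 1, 1 and 2 without VEH 1, 1 and 4 without FLX 2, 4 and 4 without VEH 2, 2 and 4 without FLX 3, and 3 and 6 without VEH 3. Together these are 1.49%, 4.48%, 7.46%, 11.9%, 8.96% and 13.4% of the 67, beside 1.46%, 3.17%, 9.93%, 10.8%, 7.97% and 18.6% of all probe sets. Of the 10 genes, only Kif3a passed in all 15 alternatives with a test, with an adjusted p between 7.30e-05 and 0.0295, while Kif5b kept its call in 14 and Map1s in 5.

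Different probe sets of the same gene gave different answers in the comparison by number. Of the 67 genes, 35 had at least 2 probe sets above the filter. Over their kept probe sets, 125 with those of the single-probe-set genes, 24 passed, 7 of them higher and 17 lower on the arrays numbered 1. That is 19.2%, beside 15.3% of all probe sets, with 5.6% beside 6.22% higher and 13.6% beside 9.03% lower. The 24 belonged to 19 genes, 9 of which passed only through a probe set that was not the one of highest mean: Kif1b, Kif3b, Kif5c, Kif16b, Dynll1, Dynlt3, Dctn6, Stmn1 and Tubb2a. Shares over all genes are not given here for these counts of genes, so nothing particular to the 67 is read from them. Of the 10 genes that passed, 5 had 1 kept probe set, and among the other 5 only Map1b passed with every one.

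The widest gap within a gene was that of Kif5c. Its probe set of highest mean had 18707 on FLX 1 and 18651 on VEH 1, against 18070, 18242, 18701 and 16087 on FLX 2, VEH 2, FLX 3 and VEH 3, a difference of 0.07 ± 0.12. Another Kif5c probe set (1422945_a_at) had 2055 on FLX 1 and 2495 on VEH 1, against 10049, 9037, 9234 and 8929 on FLX 2, VEH 2, FLX 3 and VEH 3. Its arrays numbered 1 stood far below the rest, by -2.04 ± 0.13 (limma, adjusted p = 0.000793), while the first probe set of the same gene showed no such gap. Of the 3 other Kif3a probe sets none passed, with differences of -0.13 ± 0.13, -0.32 ± 0.12 and -0.29 ± 0.14, so that the lower level of Kif3a was read from 1 of 4 probe sets. For Kif5b, 3 of 5 probe sets passed, at -0.91, -1.87 and -0.78, and the others gave -0.07 and 0.51. Kif1b, a vesicle and mitochondrion carrier, had -0.02 on its used probe set and -1.28 and -1.57 on a pair of others that passed. Kif3b, the partner of Kif3a in kinesin-2 and named after its values were seen, had 0.17 on its used probe set and -0.99 on another that passed. Both Map1b probe sets were low on the arrays numbered 1, at -1.10 and -1.67. For Mapt, 2 of 4 probe sets passed, at -0.50 and -0.49, and the others gave -0.02 and -0.10.

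Gaps of this kind were found across the array. The median range between the probe sets of a gene was 0.36 on the log2 scale for the 35 genes and 0.35 for all 4406 genes with at least 2 kept probe sets. The range was over 1 for 6 of the 35, or 17.1%, and for 11.9% of the 4406, and the number of probe sets per gene was not matched. In the comparison of title groups the median range was 0.16 for the 35 genes and 0.14 for the 4406. All probe sets of a gene had 1 sign in the comparison by number for 20 of the 35, and the share of the 4406 is not given here.

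**Figure D5:**
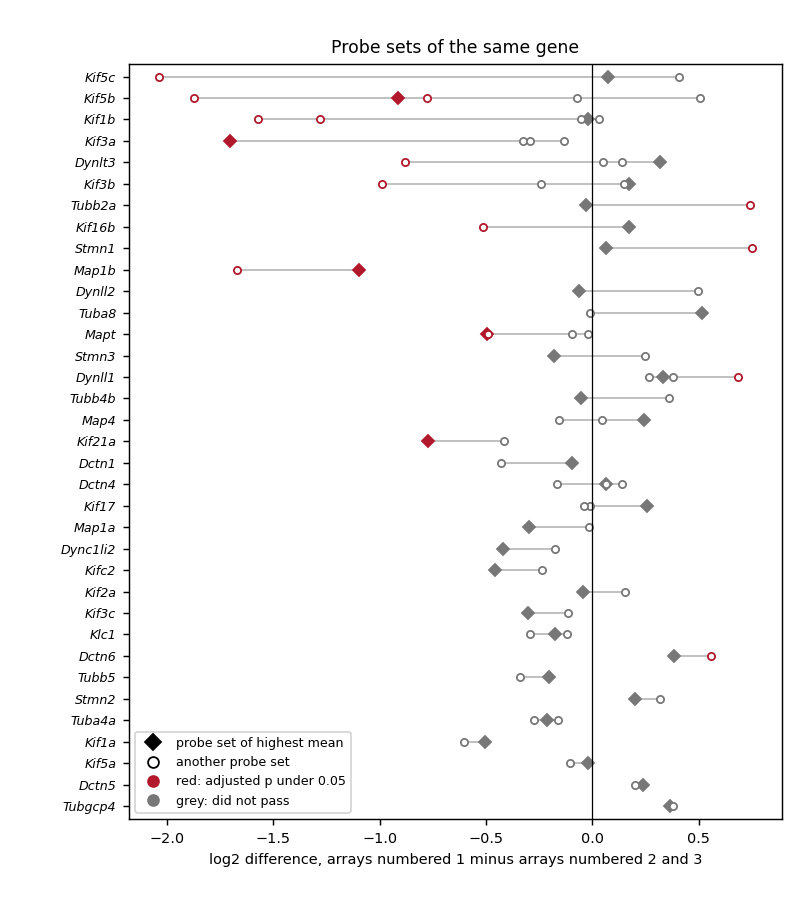
Log2 difference, arrays numbered 1 minus arrays numbered 2 and 3, of every kept probe set of the 35 genes with at least 2, with the probe set of highest mean as a diamond and those with an adjusted p under 0.05 in red. For Kif5c the probe sets lie at 0.07, -2.04 and 0.41, and for Kif5b between -1.87 and 0.51.

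Signal ratios of control probe sets moved with the number in part. The log2 ratio of the 3 prime to the middle probe set of beta-actin was 2.17 on FLX 1 and 2.28 on VEH 1, against 1.81, 1.83, 1.95 and 1.87 on FLX 2, VEH 2, FLX 3 and VEH 3. The ratio of its 3 prime to its 5 prime probe set overlapped between the numbers, with means of 2.87 on the arrays numbered 1 and 2.97 on the rest. For Gapdh the 3 prime over 5 prime ratio was 0.88 on FLX 1 and 1.25 on VEH 1, against 1.37, 1.23, 1.63 and 1.28 on FLX 2, VEH 2, FLX 3 and VEH 3. Of the marker lists for other cell types, microglia had the largest median difference by number, 0.50, with 7 of 9 genes positive and 0 past the threshold. The summed intensity of its 13 measured markers lay between 3590 and 4005 on the arrays numbered 1 and between 1545 and 3805 on the others, lowest on VEH 3. Tyrobp, P2ry12, Trem2 and Itgam stayed below the filter. Single markers passed by number in other lists. Lower on the arrays numbered 1 were Slc1a2 of astrocytes (-0.88 ± 0.20), Sox10 of oligodendrocytes (-0.90 ± 0.24) and Pde1a of layer 5 (-0.99 ± 0.14). Slc2a1 of vessels was higher (0.50 ± 0.12). These 4 markers are named after their values were seen. As shares of their lists they are 5.56%, 7.14% and 11.1%, beside 6.86% of all genes lower, and 10%, beside 5.92% higher. By number, 12 of 18 astrocyte, 5 of 14 oligodendrocyte, 6 of 9 layer 5 and 7 of 10 vessel markers were positive. The medians of these lists were 0.10, -0.079, 0.19 and 0.22, so the single markers do not stand for their lists. The part of RNA quality and of other cell types in the differences by number was not tested.

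Other genes of microtubule-based transport were measured beside the 67. Of 70 such genes in a list that holds adaptors, microtubule-affinity kinases, mitochondrial transport genes and ankyrins, 64 were kept. Between the title groups 32 of them were on the positive side (median -0.00039), and 0 passed in limma or had an unadjusted p under 0.05. The most positive were Hook1 and Mapk8ip1 at 0.28 each and Ank2 at 0.27, and the most negative Camsap3 at -0.27, Rhot1 at -0.25 and Ttbk1 at -0.24. By number, 2 passed higher on the arrays numbered 1, or 3.12%, beside 5.92% of all genes. Another 7 passed lower, or 10.9%, beside 6.86%, with a median of -0.10 for the list, beside 0.037 over all genes. Rhot1, which couples mitochondria to kinesin, differed by 0.67 ± 0.16 (limma, adjusted p = 0.0329) and Snapin by 0.65 ± 0.14 (limma, adjusted p = 0.0224). Next was the tau kinase gene Ttbk2 at 0.51, which did not pass. Ank2, an ankyrin of axons, was the lowest at -1.17 ± 0.23 (limma, adjusted p = 0.0179), and Mark2, a kinase that frees tau from microtubules, lay at -0.73 ± 0.15 (limma, adjusted p = 0.0199). Mapk8ip1, a kinesin adaptor, lay at -0.80 ± 0.23 and did not pass (limma, adjusted p = 0.0530).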

How the data were processed

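The values the authors deposited are linear intensities, 1 for each probe set on each array. GCRMA is the tool named in the submitters' processing notes, and its version is not given in the sources used here. Per the labels' protocols, RNA from each purification was DNase treated and 15 ng was amplified in 2 cycles. Of 45101 probe sets, 64 controls were left out, and 19073 whose mean reached 50 in at least 1 title group were kept, since the submitters recommend a filter at that level. A single symbol was given for 34945 probe sets, several for 932 and none for 9160. All 67 genes matched RefSeq (GRCm38.p6) by Entrez identifier, with 0 symbols changed.

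The tests were those of limma 3.58.1 (lmFit and eBayes, R 4.3.3) on log2 intensity, two-sided, with Benjamini-Hochberg adjustment over the 19073 probe sets and a threshold of 0.05. The fits were fluoxetine-titled minus vehicle-titled, number 1 minus numbers 2 and 3 with title group as a term, and their interaction. Beside them were run quantile normalization, other filters, a floor at 50, another summary of probe sets, an intensity trend, a replicate block, leaving out arrays or pairs and, chosen after seeing the data, 1 mean per replicate number. The replicate numbers were taken as pairing the samples, from the titles and from deviations from group means. These correlated at 0.74, 0.60 and 0.50 for numbers 1, 2 and 3, against -0.59 to 0.26 between different numbers. Deviations within a group cancel out by construction, so values between different numbers are no separate evidence of pairing. Between numbers 2 and 3 these values were 0.11 and 0.26. On simulated data of 19073 probe sets, the title-group fit found 0.439% of changes of 1.5-fold, 25.6% of those of 2-fold and 80.0% of those of 4-fold. The fit by number found 7.29%, 55.8% and 92.2%. Changes were placed only in probe sets above a higher intensity level than the filter, and noise was drawn independently for each array. Same-numbered arrays of the data deviated together, so these rates need not hold for them or for genes near the filter. The number of arrays limits the precision.

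The genes, lists and comparisons were chosen with earlier results of these data known, so their p-values are no independent evidence. Genes named in the text were, per role, the 2 of highest mean; per comparison, the 6 most positive and 6 most negative; those past the threshold or without overlap between title groups; and 14 textbook neuronal microtubule genes. From the list of other microtubule and transport genes, the 3 highest and 3 lowest per comparison were named. Kif26a and the genes below the filter were named for their closeness to it, and Map1a, Dynlt3, Dync2li1, Dctn2, Dctn5 and Kif3b after their values were seen.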

Additional observations from a re-analysis of the deposited data

Results flagged for a closer look

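Among the 4 arrays numbered 2 or 3, 5 of the 47 named genes had 1 array standing apart. Its gap to the nearest of the others, divided by the whole range, passed Dixon's critical value for 4 samples. For independent values chance gives about 5%. That rate does not apply here, since the 47 were partly chosen for extreme differences on these same arrays. Same-numbered arrays also deviated together. The 4 arrays hold both title groups. For Dynll2, VEH 2 had an intensity of 13818 and the others between 17126 and 17712. For Dynlrb1, VEH 3 had 5112 and the others between 3503 and 3733. For Map1b, FLX 3 had 1468 and the others between 2245 and 2308. For Tubgcp4, VEH 2 had 306.1 and the others between 219.1 and 222.4. For Tubgcp6, VEH 2 had 155.0 and the others between 116.1 and 118.6. The single array lay on the side of the arrays numbered 1 for Dynlrb1, Map1b and Tubgcp4 and away from them for Tubgcp6. The cause was not tested.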

How the results depend on the processing

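Between the title groups, 0 of the 67 genes and 0 probe sets passed in every alternative. With the replicate block the median log2 difference of the genes stayed at -0.019 and 0 genes passed. With 1 array left out the median ran between -0.019 and 0.043, the highest without FLX 1, and it was 0.029 without VEH 2. Of 751 alternative values of single genes, 97 turned sign.

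In the comparison by number, 630 probe sets were higher and 1068 lower with no filter, in place of 1187 and 1723. More probe sets were then tested, the set held all 94 genes on the array, and 2 of these were lower. An intensity trend gave 6 genes higher. In the fits with a replicate block, number 1 minus number 3 gave 5 genes higher, and number 1 minus number 2 gave a median of -0.088. With 1 mean per replicate number, an alternative chosen after seeing the data, 560 probe sets and 1 gene were higher. Quantile normalization gave a median of -0.080. With 1 array left out, probe sets higher ran between 13 and 1639 and lower between 266 and 1910, genes higher between 0 and 4 and lower between 1 and 6, and the median between -0.087 and -0.016, with the fewest calls without FLX 1. Without FLX 1 or VEH 1, a lone array numbered 1 is assumed to vary like the others. Of 751 alternative values of single genes, 45 lost the call, 11 gained it and 32 turned sign. As moved by more than the spread between arrays 15 were counted, values with a test only where their sign turned too. Larger shifts of tested values that kept their sign are not in that count. Over the median of its kept probe sets, Kif3a was at -0.31 in place of -1.70.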
